A study of Mus musculus with 2 samples.

Results

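The genes described here serve the storage and use of fatty acids in group 2 innate lymphoid cells (ILC2s), lymphocytes of the lung that carry no antigen receptor and release type 2 cytokines such as IL-5 and IL-13. They are 9 of the 32285 genes counted, listed by name and not by their values: Dgat1, Dgat2, Hilpda, Plin2, Pparg, Scd1, Scd2, Fabp5 and Cpt1a. All 9 were found in both count matrices. Droplet-based scRNA-Seq was run on live lung cells sorted as Lineage- CD90.2+ ST2+ Sca-1+, either WT or Pac1-/-, with cells of 4 to 5 mice mixed into a single library per genotype. Pac1-/- mice carry a germline loss of the phosphatase PAC1, encoded by Dusp2, on the C57BL/6J background. The study used sex- and age-matched mice of 6 to 8 weeks, and no stimulus is named for these libraries. Each genotype had 1 library, so no difference between genotypes had a replicate check and none was tested. All intervals are 95% intervals and cover counting error only.

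A cell can burn a fatty acid or store it. For storage, fatty acids are activated and joined to glycerol, and the acyltransferases DGAT1 and DGAT2 add the last fatty acid to make triglyceride. Triglyceride is packed into lipid droplets, which PLIN2 coats. HILPDA, first known from cells short of oxygen, inhibits the droplet lipase ATGL and so slows the release of stored fat. SCD1 and SCD2 place a double bond in saturated fatty acids, FABP5 carries fatty acids through the cytosol, and CPT1A passes them to mitochondria for oxidation. PPARγ, encoded by Pparg, is a nuclear receptor that senses fatty acids and drives many lipid genes. ILC2s are known to take up and store lipids.

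A barcode, the tag of 1 droplet, was kept if it held 500 or more genes and no more than 10% mitochondrial UMIs (unique molecular identifiers, 1 per captured transcript). These were 8394 of 10866 barcodes in the WT library, with a median of 4186.5 UMIs, and 7087 of 9495 in the Pac1-/- library, with a median of 5577. The 2 libraries shared 15 of the kept barcode sequences. Dusp2 gave 1419 UMIs in WT, 26.0 CPM (UMIs scaled to a common library total), and 5 UMIs in Pac1-/-, 0.0857 CPM. At least 2 of 10 ILC2 markers, among them Gata3 and Il1rl1, were found in 99.1% of WT and 98.8% of Pac1-/- barcodes. Markers of other cell types were scarce: at least 2 markers of a list other than T cells and erythroid cells were found in 144 WT barcodes (1.72%) and 289 Pac1-/- barcodes (4.08%). At least 2 of the 8 T cell markers were found in 31.3% and 33.6% of barcodes, mainly through Trbc2, found in 61.7% and 74.3%, and Cd3g, found in 33.5% and 26.7%, with Cd8a at 0 in both libraries. Erythroid markers summed to 76.2 CPM in WT and 269 CPM in Pac1-/-. Of 6 adipocyte markers, Cfd and Lep were at 0 and the summed level was 0.165 and 0.171 CPM, and no barcode held 2 of them.

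The members are all protein-coding genes. In the mm10 assembly (GRCm38, GENCODE annotation) Dgat1 lies at chr15:76502015-76511953 on the minus strand and Dgat2 at chr7:99153658-99182719 on the minus strand. Hilpda lies at chr6:29272488-29275446 on the plus strand, Plin2 at chr4:86648386-86670060 on the minus strand and Pparg at chr6:115360951-115490399 on the plus strand. Scd2, at chr19:44293674-44306864 on the plus strand, and Scd1, at chr19:44394455-44407879 on the minus strand, are neighbours on chromosome 19, which also holds Cpt1a at chr19:3322334-3385733 on the plus strand. Fabp5 lies at chr3:10012548-10016607 on the plus strand. Of the stretches of 60 bases in the last 500 bases of their coding transcripts, 1.45% of those of Plin2 also occurred in transcripts of the gene Gm12551. For the other 8 members none occurred in a transcript of another gene, so UMIs of Scd1 and Scd2 are separable in sequence. The microRNA gene Mir5114 overlaps Scd2 on the same strand, and Gm44079 overlaps Pparg on the other strand.

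Hilpda and Plin2 both encode proteins of the droplet surface and differed in how their levels moved with the state of the cell, as shown further on. The bases before their start sites are therefore shown for reference, from the RefSeq promoter set (GRCm38.p6), in which 4 of the 9 members had an entry (Cpt1a, Hilpda, Plin2 and Pparg). The motifs named next were searched on both strands of the 250 bases before each start. Searched were the cAMP response element TGACGTCA, present in 1.55% of 32817 promoters, the Nr4a response element AAAGGTCA, present in 1.34%, the nuclear receptor half-site AGGTCA, which lies within the Nr4a element, present in 14.0%, and the hypoxia response core ACGTG, present in 16.6%. Capitals mark a match, read on either strand. The Hilpda sequence lies at chr6:29272238-29272487 on the plus strand, ahead of the first start site, the Hilpda excerpt at chr6:29272573-29272597 ahead of the second, and the Plin2 sequence at chr4:86670061-86670309 on the minus strand.
Hilpda, first start: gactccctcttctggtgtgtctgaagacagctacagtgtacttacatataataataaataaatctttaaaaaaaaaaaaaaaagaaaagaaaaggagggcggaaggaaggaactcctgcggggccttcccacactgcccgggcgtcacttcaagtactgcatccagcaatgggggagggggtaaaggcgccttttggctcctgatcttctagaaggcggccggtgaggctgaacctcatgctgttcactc
Hilpda, second start, 25 bases: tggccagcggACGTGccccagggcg
Plin2: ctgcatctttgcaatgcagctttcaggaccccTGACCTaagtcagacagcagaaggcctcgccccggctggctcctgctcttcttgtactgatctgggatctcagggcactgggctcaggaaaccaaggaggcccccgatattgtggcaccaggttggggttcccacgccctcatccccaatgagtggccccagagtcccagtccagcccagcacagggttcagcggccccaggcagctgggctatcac
The second Hilpda start had 1 match to the hypoxia core, 43 bases before the start, and its first start had none of the motifs. Plin2 had 1 nuclear receptor half-site, 218 bases before the start. The first and second of the 3 Pparg starts had 1 half-site each, and so did Cpt1a. No window of these genes held the full cAMP response or Nr4a element as written. A match is a run of letters, and binding was not measured here.

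Hilpda gave the most UMIs of the 9 genes, 43489 in WT and 45370 in Pac1-/-, or 797 (interval 789 to 804) and 778 (771 to 785) CPM. Each transcript is counted once from its 3′ end, so these levels were not divided by length. Dgat1 was at 124 (122 to 127) CPM in WT and 77.4 (75.2 to 79.7) in Pac1-/-. Dgat2 was at 80.7 (78.3 to 83.1) and 36.3 (34.8 to 37.9). These triglyceride-forming enzymes were thus lower in the Pac1-/- library. Plin2 was at 47.1 (45.3 to 48.9) CPM in WT and 72.0 (69.9 to 74.2) in Pac1-/-. Pparg was at 66.1 (64.0 to 68.3) and 52.9 (51.1 to 54.9). The droplet coat gene was the higher in Pac1-/- and the nuclear receptor the lower. Scd2 was at 11.8 (10.9 to 12.7) CPM in WT and 20.7 (19.6 to 21.9) in Pac1-/-. Cpt1a was at 20.4 (19.3 to 21.7) and 22.0 (20.8 to 23.2). Fabp5 was at 13.8 (12.8 to 14.8) and 12.9 (12.0 to 13.9). The intervals of Cpt1a and Fabp5 overlapped between libraries, and those of the other members of this paragraph, Hilpda included, did not. How many of all genes did not overlap was not counted, so this is not read as a result about these members.

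Scd1 stood apart with 16 UMIs in WT and 89 in Pac1-/-, or 0.293 (0.168 to 0.476) and 1.53 (1.23 to 1.88) CPM. These UMIs came from 10 WT and 26 Pac1-/- barcodes, and 5 barcodes held 68.8% and 62.9% of them. At least 2 B cell markers were found in 8 of the 10 and 18 of the 26 barcodes, against 0.0239% and 0.0991% of the barcodes without Scd1. Barcodes with 2 or more markers of another type, T cell and erythroid lists not applied, held 93.8% and 93.3% of the Scd1 UMIs. Outside them Scd1 was at 0.0190 and 0.112 CPM. Barcodes with 2 or more B cell markers held 14 of the 16 WT and 52 of the 89 Pac1-/- UMIs, and 2 Pac1-/- barcodes with 2 or more markers of alveolar epithelium held 31. The Scd1 values of these libraries therefore describe a few barcodes with markers of B cells or, in Pac1-/-, of alveolar epithelium, and Scd1 is left out of the plots of ratios and of levels by cell state.

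**Figure D1:**
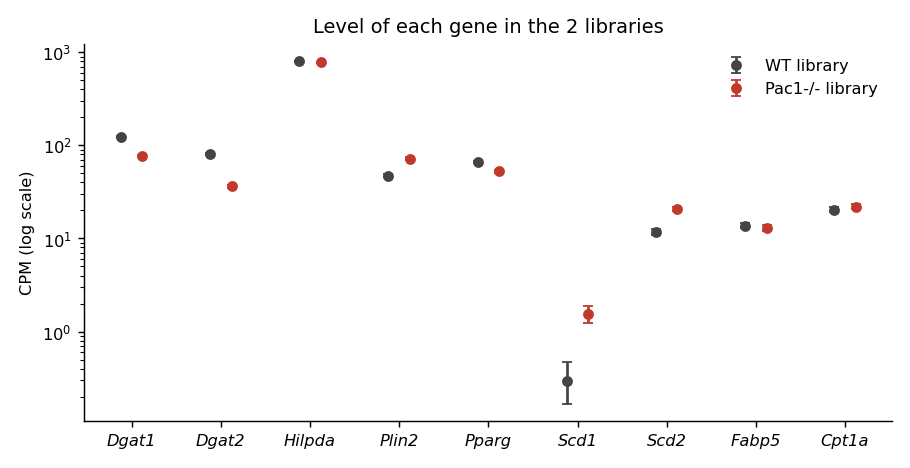
Level of each of the 9 genes in the WT (grey) and Pac1-/- (red) libraries, in CPM on a log scale, with exact Poisson 95% intervals as bars (1 library per genotype). Hilpda sits near 800 in both libraries, Dgat1 and Dgat2 are lower in Pac1-/-, Plin2 and Scd2 are higher, and Scd1 lies near or below 1 CPM.

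Hilpda was also the most widely detected, in 67.2% of WT and 64.3% of Pac1-/- barcodes. Dgat1 was detected in 34.3% and 27.3%, Dgat2 in 23.6% and 16.2%, Pparg in 28.3% and 29.3%, and Plin2 in 19.0% and 28.9%. Because the Pac1-/- library was deeper per barcode, each barcode was also thinned at random to 1500 UMIs, which kept 7634 WT and 6564 Pac1-/- barcodes and left out 760 and 523. At this equal depth the share of barcodes with Hilpda was 48.3% in WT and 41.9% in Pac1-/-, with Dgat1 in 13.6% and 8.50%, Dgat2 in 8.84% and 4.25%, and Plin2 in 6.13% and 8.96%. Pparg then stood at 8.92% and 7.82%, the reverse of the order in unthinned barcodes. Scd2 was found in 1.76% and 3.12%, Cpt1a in 3.17% and 3.72%, and Fabp5 in 1.57% and 1.49% of thinned barcodes. As a background for free RNA, barcodes with at least 3 B cell markers were examined, 8 in WT and 23 in Pac1-/- with medians of 3664.5 and 4652 UMIs. After thinning to 1500 UMIs, 2 of the 8 and 5 of the 23 held Hilpda, none and 2 held Dgat1, 1 and 1 held Dgat2, and none held Plin2, Pparg or Fabp5. Scd2 was then held by 1 in each library and Cpt1a by none and 2. As sequenced, Hilpda was held by 3 of the 8 and 12 of the 23, Dgat1 by 2 and 5, Dgat2 by 1 and 1, and Plin2 by 1 and 3. With so few reference barcodes the exact binomial upper limits were wide, at 65.1% in WT and 43.7% in Pac1-/- for thinned Hilpda and 36.9% and 28.0% for thinned Dgat1. No member was detected in a larger share of barcodes than its upper limit at either depth, so detection alone did not separate these genes from free RNA. After thinning, even a gene held by no reference barcode had limits of 36.9% and 14.8%, above the share of every member but Hilpda. The comparison could thus not decide for the other members. Of the barcodes with Scd1, most with B cell markers, 7 of 10 and 14 of 26 held 2 or more ILC2 markers. Droplets of more than 1 cell were not excluded from this reference. Scd1 is left out of this reading, since its own UMIs lay largely in barcodes with B cell markers.

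Fewer Pac1-/- barcodes held Hilpda, and those that did held somewhat more of it. The mean over barcodes with a Hilpda UMI was 7.71 UMIs in WT and 9.95 in the deeper Pac1-/- library, and it was 2.33 and 2.66 after thinning every barcode to 1500 UMIs. At 1500 UMIs per barcode the variance over the mean of Hilpda was 2.65 in WT and 3.96 in Pac1-/- at nearly equal means of 1.12 UMIs, so its UMIs were more unevenly spread over Pac1-/- barcodes. The same ratio was 1.31 and 1.42 for Dgat1. For Cpt1a it was 0.992 and 1.06, close to the value of 1 that counting alone gives. Fabp5 had 34.3% of its WT and 38.8% of its Pac1-/- UMIs in the top 1% of barcodes. This share is raised for any gene found in few barcodes, and Scd2 had 29.4% and 19.0%. In WT, 22 of the Fabp5 UMIs lay in 7 barcodes with 2 or more macrophage or monocyte markers.

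Ratios between libraries are given as log2 values relative to the median of the 12427 genes with at least 50 UMIs over both libraries, which was itself 0.19 higher in Pac1-/-. Relative to that median, Dgat2 was lower by a log2 ratio of -1.34 (-1.41 to -1.26) and Dgat1 by -0.87 (-0.93 to -0.82). Scd2 was higher by 0.63 (0.49 to 0.77) and Scd1, in the few barcodes named above, by 2.19 (1.41 to 3.06). These 4 genes were past 1.5-fold, 2 of 9 higher and 2 of 9 lower, where 8.22% of all genes compared were past it upward and 12.8% downward. Scd1 met the minimum of 50 UMIs through its 89 in Pac1-/-, against 16 in WT. Outside barcodes with 2 or more markers of another type (T cell and erythroid lists not applied) it had 1 WT and 6 Pac1-/- UMIs. Its ratio is therefore no result about the other barcodes. Scd2 was under the fold in each class of barcode by status and with equal status composition, at 0.39 to 0.57, and the count of higher members was 1 or 0 under 7 alternatives. Plin2 was higher by 0.43 (0.35 to 0.50), and by 0.61 as counted, without the shift by the median. Pparg was at -0.51 (-0.58 to -0.44), Fabp5 at -0.28 (-0.43 to -0.13) and Hilpda at -0.22 (-0.24 to -0.20). As counted, Hilpda was at -0.04 and Fabp5 at -0.09, and Cpt1a changed sign, from -0.08 (-0.20 to 0.04) to 0.11. The median of the 9 genes was -0.22, and that of all genes compared is 0 by construction. Fewer cells with a transcript and fewer transcripts per cell cannot be told apart in sums of this kind.

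Of the 83 other genes listed for lipid handling, all were in the files and 66 had at least 50 UMIs. Relative to the median gene, 6 of these were past 1.5-fold higher in Pac1-/- and 3 lower, against 8.22% and 12.8% of all genes compared, so the upward count was near the background and the downward count under it. In the list of enzymes that activate and esterify fatty acids, 2 of 12 measured genes were lower and none higher. Acsl4, which activates polyunsaturated fatty acids such as arachidonate, stood at 164 CPM in WT and 83.4 in Pac1-/- (-1.16, -1.21 to -1.11). Soat1, which esterifies cholesterol for storage, stood at 135 in WT and 75.8 in Pac1-/- (-1.02, -1.08 to -0.97). In the list of droplet coat and lipolysis genes, 3 of 9 were higher. Plin3, a further droplet coat protein, was at 3.11 and 7.15 CPM (1.01, 0.75 to 1.28), and Fitm2, needed for droplets to form, at 0.898 and 2.16 (1.08, 0.59 to 1.59). G0s2, like Hilpda an inhibitor of ATGL, had 16 UMIs in WT and 82 in Pac1-/- (2.07, 1.29 to 2.95). Barcodes with 2 or more markers of another type, T cell and erythroid lists not applied, held none of the 16 and 12 of the 82. Within Pac1-/-, G0s2 was lower with Il5 (-1.74, 22 against 60 UMIs), Il13 (-1.59, 12 against 70) and Nr4a3 (-0.93, 38 against 44). The lipase ATGL itself, Pnpla2, was at 25.1 and 20.4 CPM (-0.49, -0.60 to -0.38). Among genes of synthesis, elongation and desaturation, Elovl5, a fatty acid elongase, was at 200.4 and 148.8 CPM (-0.62, -0.66 to -0.58) and was the only one of 9 past the fold. All 12 genes of mitochondrial beta oxidation were measured and none passed 1.5-fold relative to the median gene. The relative log2 ratios of these 12 ran from -0.08 for Etfdh to 0.51 for Eci1 with a median of 0.20. Without the shift by the median, Eci1, at 17.1 and 27.7 CPM, and Acaa2, at 21.7 and 33.2, were past the fold, where 16.9% of all genes were. Cd36, a fatty acid transporter, and the cholesterol synthesis genes Fdps and Fdft1 were the other genes past the fold, at 0.93 (0.55 to 1.32), 0.64 (0.48 to 0.81) and 0.60 (0.37 to 0.83), all higher.

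The state of a cell was read from 3 genes. Il5 and Il13 encode the type 2 cytokines, and Nr4a3 encodes a nuclear receptor that is quickly induced when lymphocytes are activated. A barcode was called positive with at least 1 UMI. No share of free RNA was measured for these 3 genes, so a single UMI need not come from the cell itself. Il5 was detected in 53.1% of WT and 39.5% of Pac1-/- barcodes, Il13 in 28.8% and 21.4%, and Nr4a3 in 62.8% and 47.0%. Positive barcodes were the deeper ones, for Nr4a3 with medians of 5375.5 against 3396 UMIs in WT and 7908.5 against 4813 in Pac1-/-. Each comparison was therefore repeated within 5 equally filled bands of UMIs per barcode. Depth still differed inside the top band. For Nr4a3 the medians there were 13943 against 10824 UMIs in WT, with 71 negative barcodes, and 18281 against 13597.5 in Pac1-/-. Barcodes of 1 library are not replicates, so these comparisons also carry no test. A gene with under 50 UMIs in a comparison was left out of the counts of genes past 1.5-fold, which removed Scd1, with 16 UMIs, from those in WT. The median gene was itself lower in positive barcodes, at -0.26 in WT and -0.23 in Pac1-/- for Nr4a3, and ratios are given relative to it while levels in CPM are not.

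Dgat1, Dgat2 and Hilpda were higher in Nr4a3-positive barcodes of both libraries. Hilpda was at 925 CPM in positive and 294 in negative WT barcodes, and at 1028 and 295 in Pac1-/- barcodes. Its log2 ratio relative to the median gene was 1.92 (1.87 to 1.97) and 2.04 (2.0 to 2.08). In CPM the negative barcodes were nearly level between genotypes, and relative to the median gene Hilpda was at -0.13 (-0.19 to -0.07) in Pac1-/- over WT among them. Dgat1 was at 145 against 45.0 CPM in WT and at 101 against 32.8 in Pac1-/-, ratios of 1.95 (1.82 to 2.08) and 1.85 (1.73 to 1.97). Dgat2 was at 91.0 against 40.1 and at 44.5 against 20.6, ratios of 1.45 (1.30 to 1.59) and 1.35 (1.19 to 1.51). Within the 5 bands of UMIs the ratios in WT and Pac1-/- were 2.09 and 2.05 for Dgat1, 1.46 and 1.57 for Dgat2, and 1.93 and 2.27 for Hilpda. These 3 genes were the members past 1.5-fold higher, where 10.2% of all genes compared passed in WT and 7.85% in Pac1-/-.

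Going the other way with Nr4a3 was Scd2, at 10.1 CPM in positive and 18.5 in negative WT barcodes and at 16.7 and 28.5 in Pac1-/- barcodes. Its ratios were -0.61 (-0.86 to -0.37) and -0.54 (-0.70 to -0.37), with overlapping intervals. Relative to the median gene it passed 1.5-fold in WT alone, where 4.83% of all genes compared were past it downward. As counted it was at -0.88 and -0.77, past the fold in both libraries, where 16.5% and 9.26% of all genes were. Within the 5 bands of UMIs the ratio of Scd2 was -0.39 in WT and -0.57 in Pac1-/-. In Pac1-/-, relative to the median gene, Scd1 was the member counted past 1.5-fold downward, at -2.07 with 25 and 64 UMIs, against 2.67% of all genes. Outside barcodes with 2 or more markers of another type, T cell and erythroid lists not applied, 6 of these UMIs were left. No member was then past the fold downward, where 2.25% of all genes were. The Scd1 value of 1.23 with those 2 lists also applied rests on no more UMIs and is not read as a change. In WT, Scd1 was at -3.29 (-5.38 to -1.57) on 4 against 12 UMIs, under the minimum for the count. Plin2 did not follow Hilpda. It was at 45.0 against 55.1 CPM in WT, a ratio of -0.03 (-0.16 to 0.10), and at 65.2 against 85.2 in Pac1-/-, a ratio of -0.15 (-0.24 to -0.06). Cpt1a was at 0.19 (-0.02 to 0.41) and 0.02 (-0.15 to 0.19). Pparg was moderately higher with Nr4a3, at 0.51 (0.39 to 0.64) and 0.37 (0.26 to 0.48), and so was Fabp5, at 0.37 (0.11 to 0.64) and 0.53 (0.31 to 0.77). As counted Pparg was at 0.25 and 0.14 and Fabp5 at 0.11 and 0.30. Within the 5 bands of UMIs Fabp5 was at 0.20 and 0.49. With Il5 and Il13 status held fixed, Fabp5 ran from -0.19 to 0.49 in WT and from -0.37 to 0.69 in Pac1-/-. The median of the 9 genes was 0.37 in each library, and 0.11 in WT and 0.14 in Pac1-/- as counted.

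With Il5 the same 3 genes were higher in both libraries. Dgat1 had ratios of 1.27 (1.17 to 1.36) in WT and 1.42 (1.32 to 1.52) in Pac1-/-, Dgat2 of 1.04 (0.93 to 1.15) and 0.88 (0.74 to 1.01), and Hilpda of 1.06 (1.02 to 1.09) and 1.24 (1.21 to 1.28). In levels, Hilpda was at 921 CPM in Il5-positive and 492 in Il5-negative WT barcodes and at 1007 and 468 in Pac1-/- barcodes. These 3 members were past 1.5-fold higher in each library, against 4.87% of all genes compared in WT and 4.32% in Pac1-/-. Of the members with at least 50 UMIs, none was past it downward in WT, where 2.76% of genes were. In Pac1-/- Scd1 alone was, with 5 UMIs against 84, where 2.07% of genes were. Of its 89 UMIs there, 83 lay in barcodes with 2 or more markers of another type, T cell and erythroid lists not applied. Without these barcodes no member was past it downward, where 1.53% of all genes were. Scd1 in WT was also lower, at -2.73 (-4.82 to -1.01) on 4 against 12 UMIs. Scd2 stood at -0.48 in both libraries (-0.72 to -0.25 and -0.65 to -0.32). Plin2 was at 0.08 (-0.04 to 0.21) and -0.02 (-0.11 to 0.07), and Cpt1a at 0.13 (-0.06 to 0.32) and -0.01 (-0.18 to 0.15). Within the 5 bands of UMIs Dgat1, Dgat2 and Hilpda were at 1.22, 0.99 and 1.06 in WT and at 1.48, 0.99 and 1.41 in Pac1-/-. The medians of the 9 were 0.31 and 0.24, and 0.16 and 0.10 as counted.

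With Il13 the differences were smaller. Dgat1, Dgat2 and Hilpda had ratios of 0.58 (0.51 to 0.65), 0.51 (0.42 to 0.59) and 0.48 (0.46 to 0.51) in WT, where none of the 8 members with at least 50 UMIs passed 1.5-fold in either direction, against 1.55% of all genes upward and 2.13% downward. The fold is at 0.585, close to the WT value of Dgat1, and the WT count upward became 1 under 3 alternatives, 3 under 4 and 5 under 1. In Pac1-/- the same genes were at 0.93 (0.85 to 1.02), 0.78 (0.65 to 0.90) and 0.85 (0.83 to 0.88), past 1.5-fold, against 3.10% of all genes. Scd1, with 4 UMIs against 85, was past it downward there, against 2.12%, and in WT it was at -2.47 (-5.65 to -0.35) on 2 against 14 UMIs. Of its 89 Pac1-/- UMIs, 83 lay in barcodes with 2 or more markers of another type, T cell and erythroid lists not applied. Without these barcodes no member was past the fold downward in Pac1-/-, where 1.8% of all genes were. For each of the 3 genes the Il13 ratio was higher in Pac1-/- than in WT. This difference was not tested, and how many of all genes differ as much was not counted. Within the 5 bands of UMIs Dgat1, Dgat2 and Hilpda were at 0.55, 0.52 and 0.55 in WT and at 1.01, 0.85 and 1.07 in Pac1-/-. The medians of the 9 were 0.19 and 0.18, and 0.10 and 0.06 as counted.

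**Figure D2:**
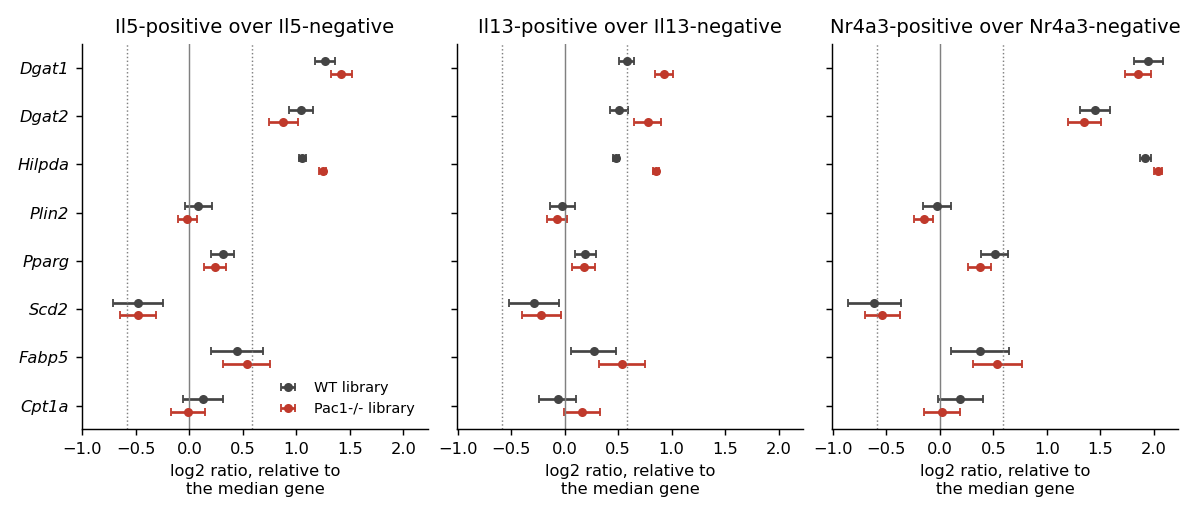
Log2 ratio of positive over negative barcodes for Il5, Il13 and Nr4a3, relative to the median gene, in the WT (grey) and Pac1-/- (red) libraries, with exact conditional 95% intervals. Dotted lines mark 1.5-fold. Dgat1, Dgat2 and Hilpda lie to the right in all 3 panels, farthest for Nr4a3, while Plin2 and Cpt1a stay near 0 and Scd2 lies to the left.

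The 3 status genes overlap in the same barcodes, so each was also compared with the status of the other two held fixed. For Nr4a3 the ratio of Dgat1 ran from 1.13 to 1.77 over the 4 combinations of Il5 and Il13 status in WT and from 0.49 to 1.69 in Pac1-/-. Dgat2 ran from 0.53 to 1.29 and from 0.57 to 1.15, and Hilpda from 0.84 to 1.90 and from 0.75 to 1.84. Each of these ratios was above 0. For Il5 with the others fixed, Dgat1 ran from 0.55 to 1.09 and from 0.52 to 1.71, Dgat2 from 0.58 to 0.92 and from 0.16 to 0.45, and Hilpda from 0.22 to 1.04 and from 0.17 to 1.01. For Il13, Dgat1 ran from 0.03 to 0.59 in WT and from 0.14 to 1.28 in Pac1-/-, Dgat2 from 0.06 to 0.64 and from 0.20 to 0.74, and Hilpda from -0.06 to 0.64 and from 0.03 to 1.06. Hilpda with Il13 in WT was the one of these cases with a value below 0. For Nr4a3 the intervals of these 3 genes all lay above 0, but several for Il5 and Il13 included it. Among them were Dgat1 with Il13 in WT barcodes with Il5 and Nr4a3, at 0.03 (-0.05 to 0.11). Dgat2 with Il5 was at 0.16 (-0.11 to 0.45) in Pac1-/- barcodes with Il13 and Nr4a3.

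By the number of the 3 status genes detected, Hilpda stood at 207, 557, 960 and 960 CPM in WT barcodes with 0, 1, 2 and 3 of them. In Pac1-/- it stood at 223, 549, 1073 and 1134. The levels of the libraries lay close together with none or 1 and parted at 2 and 3. Dgat1 stood at 36.7, 73.6, 146 and 158 CPM in WT and at 25.6, 49.0, 103 and 119 in Pac1-/-. Dgat2 stood at 30.4, 58.1, 90.6 and 98.8 in WT and at 17.4, 29.4, 43.7 and 50.3 in Pac1-/-. At each of the 4 steps both enzymes were at a higher level in WT than in Pac1-/-. Plin2 did not climb in CPM, with 51.4 and 43.1 at the ends in WT and 85.9 and 65.1 in Pac1-/-. These levels are not set relative to the median gene, which was itself lower in barcodes positive for each status gene. Scd2 went from 22.4 to 9.98 in WT and from 32.1 to 15.9 in Pac1-/-. Both were higher in Pac1-/- than in WT at each step. Pparg went from 52.4 to 68.5 in WT and from 49.1 to 54.2 in Pac1-/-, and Fabp5 from 10.6 to 15.0 and from 8.78 to 15.2. Cpt1a stayed between 19.2 and 24.4 CPM in all 8 groups.

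**Figure D3:**
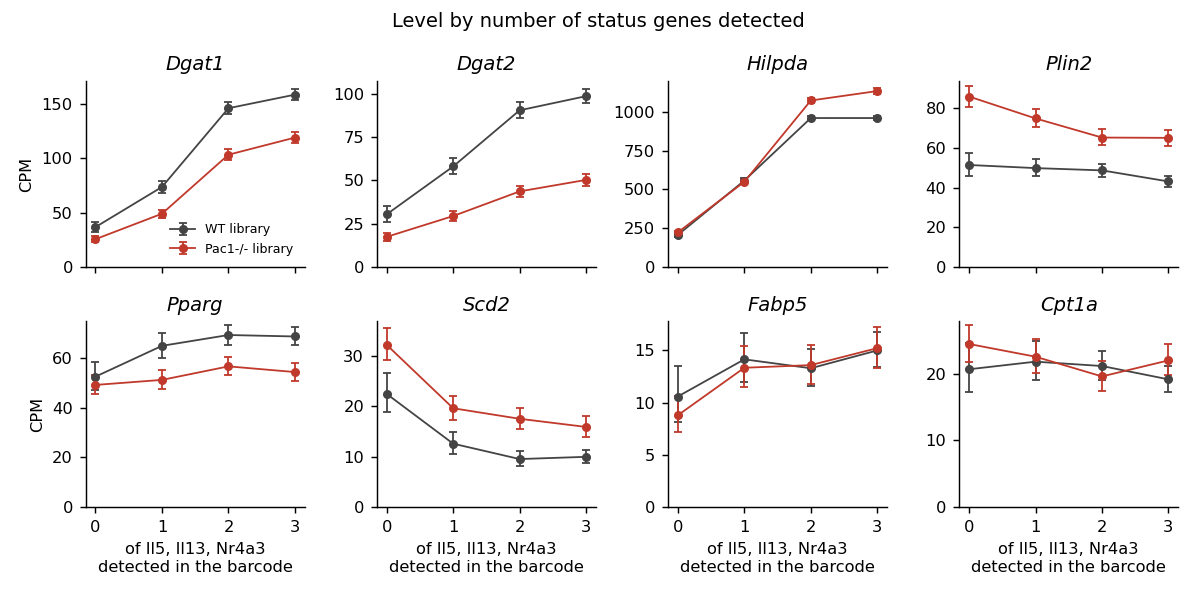
Level of 8 genes in CPM (axes from 0) in barcodes with 0, 1, 2 or 3 of Il5, Il13 and Nr4a3 detected, in the WT (grey) and Pac1-/- (red) libraries, with exact Poisson 95% intervals. Dgat1, Dgat2 and Hilpda climb with the number, from 207 to 960 for Hilpda in WT, while Scd2 declines, Plin2 is lower at 3 than at 0 in CPM but between -0.15 and 0.08 relative to the median gene for each status gene, and the Pac1-/- line of Dgat1 and Dgat2 stays below the WT line.

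Detection of more status genes goes with depth, so the level was also followed against the number of Nr4a3 UMIs in barcodes thinned to 1500 UMIs. Hilpda was at 475, 956, 1199 and 1576 CPM in WT barcodes with 0, 1, 2 to 3 and 4 or more Nr4a3 UMIs, and at 483, 1278, 1835 and 2270 in Pac1-/- barcodes. At equal depth and equal Nr4a3 count, the Hilpda level was thus the higher in Pac1-/- wherever Nr4a3 was detected. Dgat1 was at 75.0, 138, 174 and 212 in WT and at 51.8, 108, 126 and 218 in Pac1-/-, where the last group held 153 barcodes and its interval ran from 162 to 287. Dgat2 was at 56.5, 89.6, 111 and 115 in WT and at 24.5, 46.0, 73.8 and 74.1 in Pac1-/-. Plin2 was at 52.0, 45.2, 38.7 and 42.3 in WT and at 77.9, 61.2, 63.0 and 56.6 in Pac1-/-. Nr4a3 itself was lower in Pac1-/-, at 355 against 706 CPM, and the same number of UMIs need not mark the same state in both libraries.

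**Figure D4:**
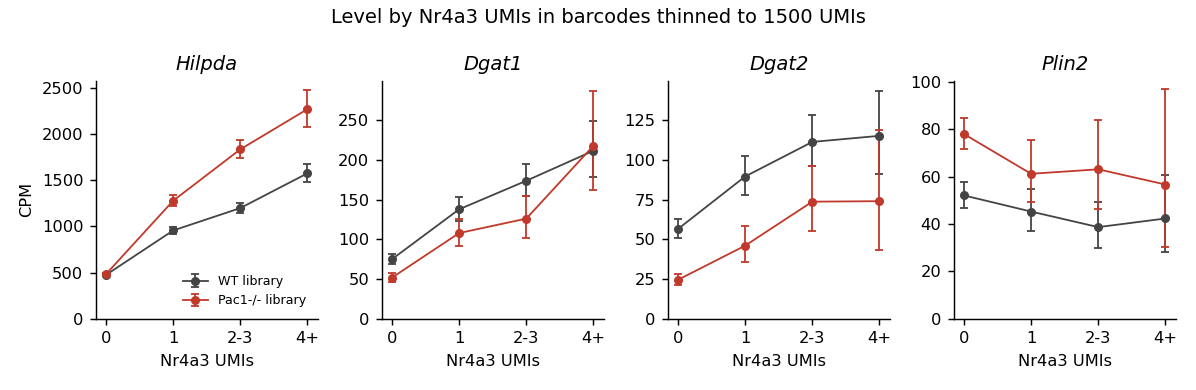
Level of Hilpda, Dgat1, Dgat2 and Plin2 in CPM (axes from 0) by the number of Nr4a3 UMIs in barcodes thinned to 1500 UMIs, in the WT (grey) and Pac1-/- (red) libraries, with exact Poisson 95% intervals. Hilpda climbs from 475 to 1576 in WT and from 483 to 2270 in Pac1-/-, and Plin2 shows no climb.

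Because fewer Pac1-/- barcodes were positive for each status gene, the genotypes were compared again within equal status. Among Nr4a3-positive barcodes, 5274 in WT and 3334 in Pac1-/-, Dgat1 was at -0.69 (-0.75 to -0.63) and Dgat2 at -1.20 (-1.28 to -1.11). Among Nr4a3-negative barcodes, 3120 and 3753, they were at -0.59 (-0.76 to -0.42) and -1.10 (-1.30 to -0.90). In barcodes with none of the 3 status genes they were at -0.65 (-0.90 to -0.40) and -0.93 (-1.22 to -0.65), and in barcodes with all 3 at -0.57 (-0.65 to -0.49) and -1.13 (-1.25 to -1.01). The lower level of Dgat1 and Dgat2 was thus present in each class of barcode, at a smaller size than in the whole libraries. With the 8 combinations of status weighted in both libraries by their shares of WT barcodes, Dgat1 was at -0.61 and Dgat2 at -1.12.

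Hilpda behaved differently. Its ratio was -0.01 (-0.03 to 0.01) among Nr4a3-positive and -0.13 (-0.19 to -0.07) among Nr4a3-negative barcodes, 0.08 (0.05 to 0.11) in barcodes with all 3 status genes, and 0.01 with the WT composition of status in both libraries. Plin2 stayed higher in Pac1-/-, at 0.37 (0.28 to 0.46), 0.49 (0.36 to 0.63), 0.61 (0.43 to 0.80) and 0.44 (0.31 to 0.57) in Nr4a3-positive, Nr4a3-negative, no-status and all-status barcodes. Scd2 stayed higher at 0.57, 0.49, 0.39 and 0.51 in the same classes, each under 1.5-fold. Pparg stayed lower, at -0.49, -0.35, -0.22 and -0.49. The intervals of Cpt1a included 0 in all 4 classes.

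**Figure D5:**
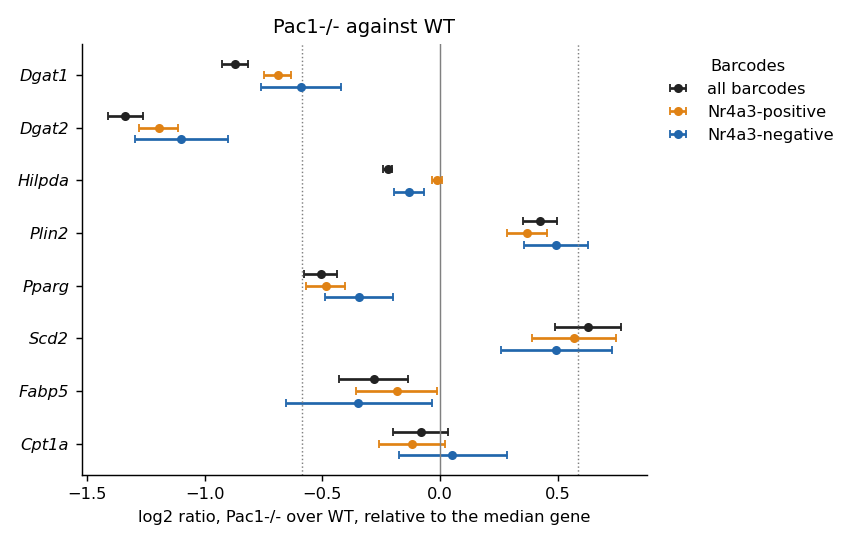
Log2 ratio of Pac1-/- over WT relative to the median gene, for all barcodes (black), Nr4a3-positive barcodes (orange) and Nr4a3-negative barcodes (blue), with exact conditional 95% intervals. Dotted lines mark 1.5-fold. Dgat1 and Dgat2 lie left of 0 in all 3 sets, Hilpda lies at -0.01 among Nr4a3-positive barcodes, and Plin2 and Scd2 lie right of 0.

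In single barcodes, at equal depth, Dgat1 and Dgat2 were found together in 143 WT barcodes, where the product of their shares gives 92.1, and in 36 Pac1-/- barcodes, where it gives 23.7, a ratio of 1.55 and 1.52. For Dgat1 with Hilpda the ratio was 1.37 and 1.58, and for Dgat2 with Hilpda 1.29 and 1.38. Hilpda was found in 65.9% of WT barcodes with Dgat1 and in 45.5% of those without, and in 66.1% and 39.7% in Pac1-/-. Hilpda and Plin2 met about as often as their shares give, at 1.08 and 0.93. Hilpda and Scd2 met less often, at 0.73 (47 barcodes) and 0.65 (56 barcodes).

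Over the 16 combinations of library and status, taken as log2(CPM + 1), Dgat1 and Hilpda had r = 0.91, Dgat1 and Dgat2 had r = 0.85, and Dgat2 and Hilpda had r = 0.67. Dgat2 and Plin2 ran opposite, at r = -0.80, as did Pparg and Scd2, at r = -0.89. These points share 2 libraries and are a description. In each combination of status Dgat2 was lower and Plin2 and Scd2 were higher in Pac1-/- than in WT, and Pparg was lower in most. The r values therefore mix the difference between libraries with that by status. Among 2722 genes with a mean of at least 50 CPM, those most like Dgat1 were Rhof and Rap1b, which encode small GTPases, and Nrip1, a corepressor of nuclear receptors, each at r = 0.98. Most like Dgat2 were Fam107b (0.98), Btg3 (0.97) and Nfil3 (0.97), the last a transcription factor needed for innate lymphoid cells to develop. Most like Hilpda were Hs3st1 (0.98), which modifies heparan sulfate, Ifrd1 (0.97) and Cxcl2 (0.97), a chemokine gene that ran from 544 to 2554 CPM. Most like Plin2 were Spcs1 (0.96), a signal peptidase subunit, Cuta (0.94) and Atp5g1 (0.94), a subunit of mitochondrial ATP synthase. Pparg was most like Tgfb1 (0.91), Sqstm1 (0.90) and Arih2 (0.90), and Cpt1a, with weaker likeness, was closest to Ociad1 (0.79) and Suds3 (0.76).

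The wider lipid lists were counted in the same way. Of 64 genes measured in both libraries, 4 were past 1.5-fold higher with Nr4a3 in both libraries and none lower, where 6.46% of all genes compared were higher and 0.847% lower, so the count was near the background. Of these, 3 were among the 12 measured genes of activation and esterification, with the same 6.46% of all genes as background. Single lists were not tested. Gpat3, which starts glycerolipid synthesis, had 1.34 (0.60 to 2.16) in WT and 0.94 (0.37 to 1.54) in Pac1-/-, on 157 and 141 UMIs. Soat1 had 0.95 (0.85 to 1.05) and 0.83 (0.73 to 0.93), at 147 against 91.0 and 85.7 against 56.6 CPM. Acsl4 had 0.93 (0.84 to 1.02) and 0.81 (0.71 to 0.90), at 177 against 111 and 93.9 against 63.2 CPM. The fourth was Cyp51, of cholesterol synthesis, with 0.84 (0.68 to 0.99) and 0.81 (0.70 to 0.91). With Il5, Acsl4 alone was past the fold in both libraries, at 0.60 (0.53 to 0.67) and 0.67 (0.58 to 0.76), where 2.79% of all genes were higher. With Il13 none of the 64 was past it in both, where 0.631% of all genes were higher and 0.379% lower. Of the 12 genes of mitochondrial beta oxidation, none was past 1.5-fold with Nr4a3 or Il5 in either library. Cpt2, the inner-membrane partner of CPT1A, was past it with Il13 in WT alone, at -0.80 (-1.53 to -0.10) on 83 UMIs. Between genotypes the 4 genes higher with Nr4a3 did not move alike. Acsl4 and Soat1 were past the fold lower in Pac1-/-, Gpat3 was at -0.44 (-0.78 to -0.10) and Cyp51 at 0.15 (0.08 to 0.22). Both counts were near or under the share of all genes, so a shared pattern is not read from these genes.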

How the data were processed

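Droplet 3′ libraries (10x Genomics, version 3.1 chemistry) were made from lung ILC2s, 1 per genotype. The deposited values are raw UMI counts per gene and barcode, which the authors made with Cell Ranger by alignment to mm10. The submitters' processing notes give version 6.1.1 and the file header 4.0.0, and the annotation release is not given in the sources used here. Reads that fit more than 1 gene may be missing from these counts.

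Barcodes with under 500 genes or over 10% mt- UMIs were left out. No doublets were called, and barcodes over 2 times the median UMIs (21.5% in WT, 19.4% in Pac1-/-) were left out as an alternative. Summed counts over 54579034 WT and 58338886 Pac1-/- UMIs were scaled to counts per 1e6 UMIs (CPM), with exact Poisson intervals, shares with Clopper-Pearson intervals, and log2 ratios with exact conditional binomial intervals, set relative to the median gene with at least 50 UMIs. Genes past 1.5-fold were counted and no p-value was computed. Scripts used Python 3.11.15, numpy 2.4.6 and scipy 1.17.1, and the ratio function was tested on simulated data. Named were the 9 members, Dusp2, the status genes, up to 3 listed lipid genes per direction and comparison, and the 3 genes most like each member of at least 20 CPM. A gene that this rule names is not reported here. Cd36, Fdps, Fdft1, Pnpla2, Etfdh, Eci1, Acaa2, Cpt2 and Cyp51 were named outside that rule, after their values were seen. The members and lists were chosen with earlier results of these data known. Thinning, equal status composition, other barcode filters and the other alternatives are given in the closing section.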

Additional observations from a re-analysis of the deposited data

How the results depend on the processing

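No paired analysis was possible because each genotype had 1 library, and for the same reason no library could be left out. Of 605 alternative values for members whose interval excludes 0, 602 kept their sign and 46 moved by over 1.5-fold. For the other members, 108 of 145 kept it. Hilpda between genotypes came to 0.014 with equal status composition, an alternative chosen after seeing the data. Scd1 with Nr4a3 in Pac1-/- came to 1.23 without barcodes with 2 markers of another type and to 0.41 with the erythroid and T cell lists not applied, the second also chosen later. The median of the 9 genes between genotypes ran from -0.23 to -0.04, lowest in size as counted.

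Counts of members past 1.5-fold moved as follows, with the share of all genes past it in the same direction and setting. Higher in Pac1-/-, it was 2 and became 1 without the deepest barcodes (over 2 times the median UMIs), thinned, with equal composition, among Nr4a3-negative barcodes and with the shorter exclusion of other types, and 0 among Nr4a3-positive barcodes and with the full exclusion, where 6.83% to 7.95% of all genes were. It was 3 as counted, with Plin2, where 16.9% were. Over the 13 alternatives Dgat1 and Dgat2 ran from -0.88 to -0.59 and from -1.38 to -1.10, and the classes with none or all of the status genes, given in the report, reach -0.57 for Dgat1 and -0.93 for Dgat2. Against barcodes with none of the status genes, 5 members were higher in WT with Il5, Il13 and Nr4a3, where 11.6%, 11.5% and 12% of all genes were, and 1 was lower with Il5 and Il13, where 6.21% and 6.65% were. In Pac1-/- the same reference gave 2 lower with each status gene, where 3.18%, 3.42% and 3.38% of all genes were. Higher with Il13 in WT, the count was 0 and became 3 without the deepest barcodes, with the full exclusion, thinned and by mean per barcode, where 3.77%, 2.64%, 4.49% and 3.42% of all genes were. It was 1 with the shorter exclusion, with at least 10 UMIs for the median gene and with at least 2 Il13 UMIs, at 1.6% to 1.99% of all genes. It was 5 with Il13 in Pac1-/- when thinned (8.5% of all genes) and 5 with Nr4a3 in Pac1-/- without the deepest barcodes (10.4%). Lower with Il5 in WT, it was 0 and became 1 as counted (5.81%) and thinned (6.25%). Lower with Il5 in Pac1-/-, it was 1 and became 2 as counted (4.07%), without the deepest barcodes (3.77%) and by mean per barcode (3.74%), and 0 with the shorter exclusion (1.53%). Lower with Il13 in Pac1-/-, it became 0 with the full (4.89%) or shorter (1.8%) exclusion. Lower with Nr4a3, it was 1 and became 0 in WT within 5 bands of UMIs (5.98%) and by mean per barcode (6.2%). In Pac1-/- it became 2 as counted (9.26%), without the deepest barcodes (4.72%), with at least 2 Nr4a3 UMIs (3.18%) and by mean per barcode (4.42%), and 0 with the shorter exclusion (2.25%). The exclusions leave fewer Scd1 UMIs, and the cause of the other moves was not tested. Depth limits Scd1, with under 50 UMIs in WT, and shares of Scd2 and Fabp5.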
